A study of Mus musculus with 9 samples.

Results

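The subject is the transcriptome of meningeal lymphatic endothelial cells (MLECs) from tumor-free control mice, as measured in 3 of the 9 RNA-seq libraries of a study of how intracranial tumors act on the lymphatic vessels of the dura. The members described are the genes with a value above 0 in all 3 control libraries, which were 5357 of the 24321 genes listed, or 22.0%. The control group was male mice aged 10 weeks, given by the study as C57BL/6, that had received PBS without tumor cells. The sample labels place this injection in the cisterna magna and the study's methods place it under the dura. The other groups of the study, which carried GL261 glioma or B16 melanoma cells, were not used.

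Each control library was made from 10 sorted cells, taken from the dorsal meninges of a pool of 6 mice, so the 3 libraries are pools of different animals. The cells were sorted as CD31+, CD45- and LYVE-1+, and the results text of the study names PDPN among the sorting markers. Levels of Pecam1, which encodes CD31, of Ptprc, which encodes CD45, and of Lyve1 are therefore a check of the sort and no finding. The cDNA of the 10 cells was amplified over 18 cycles. Values are FPKM (fragments per kilobase of transcript, relative to all mapped fragments of the library), which are divided by transcript length. Levels of different genes are set side by side on this scale, with the limit that mean FPKM still went with length across genes (Spearman's correlation -0.65, n = 4907 genes). The files give no read counts, so depth was unknown from them, no counting error could be attached to a value, and a gene at 0 is described as listed at 0. Tbp, a general transcription factor gene that every cell uses, was listed at 0 in pools 1 and 3 and had 1.31 FPKM in pool 2.

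Meningeal lymphatic vessels run along the dural sinuses and carry fluid, macromolecules and immune cells from the meninges to the cervical lymph nodes. Lymphatic endothelium is set apart from blood endothelium by the transcription factor PROX1 and by VEGFR3, the receptor for VEGF-C. It secretes the chemokine CCL21, which binds CCR7 on dendritic cells and T cells and draws them towards and into lymphatic vessels. In the mouse, CCL21 is encoded by several near-identical gene copies on chromosome 4.

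These copies held 4 of the 5 highest places in control MLECs, and their coding sequences show why their single values are uncertain. The coding sequences of Ccl21b, Gm10591 and Gm13304 in the GENCODE M1 annotation were identical to that of Ccl21c over all 402 bases. Those of Ccl21a and Gm1987 differed from it by the substitutions A84T and T194C, with positions counted from 1 at the start codon and the base of Ccl21c given first. The stretch from base 64 to base 214 is shown for both forms, 5′ to 3′, with the bases that differ in capitals. Ccl21c lies at chr4:42391951-42393082 on the minus strand of mm9 and Gm1987 at chr4:42231045-42232176 on the plus strand.

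Ccl21c, Ccl21b, Gm10591 and Gm13304: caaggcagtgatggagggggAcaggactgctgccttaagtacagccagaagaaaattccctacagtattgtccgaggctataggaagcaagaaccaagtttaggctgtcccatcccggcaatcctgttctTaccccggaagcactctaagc
Gm1987 and Ccl21a: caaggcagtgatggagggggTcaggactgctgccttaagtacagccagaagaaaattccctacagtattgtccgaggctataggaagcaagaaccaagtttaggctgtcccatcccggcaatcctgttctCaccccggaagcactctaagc

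Ribosomal protein genes were the most frequent members among the highest genes, and such genes are known to start transcription in a pyrimidine-rich stretch. The 60 bases around the annotated start, 30 before and 30 after it, are shown for 5 ribosomal protein genes among the 30 highest, read 5′ to 3′ on the gene's strand from RefSeq promoters on GRCm38.p6. Capitals mark each CTTTC. Rps27, Rpl35, Rps26 and Fau hold it in this window, and Rpl41 does not. Of further windows looked up and not shown, that of Rpl13 holds it, and those of Rps23 and Rps28 do not.

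Rps27, chr3:90213619-90213678, minus strand: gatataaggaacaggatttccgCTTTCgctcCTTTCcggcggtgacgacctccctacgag
Rpl35, chr2:39005102-39005161, minus strand: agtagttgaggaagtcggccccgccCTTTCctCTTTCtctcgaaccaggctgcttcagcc
Rps26, chr10:128626477-128626536, minus strand: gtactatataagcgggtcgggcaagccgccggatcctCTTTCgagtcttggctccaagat
Fau, chr19:6057917-6057976, plus strand: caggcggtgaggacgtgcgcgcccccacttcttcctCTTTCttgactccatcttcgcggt
Rpl41, chr10:128549139-128549198, minus strand: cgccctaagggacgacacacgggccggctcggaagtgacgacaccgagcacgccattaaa

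The letters CTTTC were chosen after some of these windows had been seen. The share in ribosomal protein promoters therefore describes a set the letters were taken from and is no test. A CTTTC can lie anywhere in the window and is not placed at the start itself. On the gene's strand they were found in 22 of the 58 ribosomal protein promoters that had an entry (37.9%). They were found in 318 of 4002 other genes above 0 in all 3 pools (7.95%), and in 2 of 40 other genes among the 100 highest. Among all 27025 promoters with an entry 9.18% held them. On either strand the shares were 46.6% for ribosomal proteins, 14.1% for the other genes above 0 in all 3 pools and 16.9% for all promoters.

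The sort was checked against marker genes before the levels were described. Lyve1, the hyaluronan receptor used in the sort, had 1705, 1250 and 974 FPKM in pools 1, 2 and 3 and ranked 68 by mean FPKM. Mmrn1, which encodes the extracellular matrix protein multimerin 1, had 842, 966 and 887 FPKM and ranked 117. Both were high in every pool and differed by less than 2-fold between pools.

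Pdpn, the podoplanin gene, had 147 FPKM in pool 1, 316 in pool 2 and 372 in pool 3. Flt4, which encodes VEGFR3, was more even at 174, 205 and 220 FPKM. Prox1, the gene of the transcription factor that sets lymphatic identity, was the lowest of the 5 lymphatic markers, at 20.9, 33.7 and 42.2 FPKM and rank 2169. All 5 markers were above 0 in every pool, and no pool was lowest for all of them, since pool 1 was lowest for 4 of them and highest for Lyve1.

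Genes of other cells were then looked up. Of all 24321 listed genes 13585 were at 0 in every pool. Of the 16 macrophage and myeloid genes 4 were above 0 in all 3 pools, with summed levels of 370, 531 and 588 FPKM. Ptprc, Csf1r, Itgam, Adgre1, Cx3cr1, Pf4 and Laptm5 were listed at 0 in every pool. Fcer1g, the shared signalling chain of Fc receptors, was the highest of them, with 201, 261 and 390 FPKM, and Lyz2, the lysozyme gene, had 0, 145 and 60.6 FPKM. No lymphocyte, neutrophil, neural or red cell gene was above 0 in all 3 pools among the 10, 7, 12 and 8 listed, and the highest of them was Cd79a, a B cell receptor component, with 22.4 FPKM in pool 2 alone. Of 12 fibroblast genes Dcn, the decorin gene, had 21.8, 44.9 and 15.7 FPKM, Col3a1 had between 0.113 and 1.46 FPKM, and Pdgfra was listed at 0 throughout. Ptgds, the highest of them by mean, had 98.9 FPKM in pool 2 and was listed at 0 in pools 1 and 3. The fibroblast genes summed to 22.7, 148 and 16.2 FPKM, highest in pool 2.

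**Figure D1:**
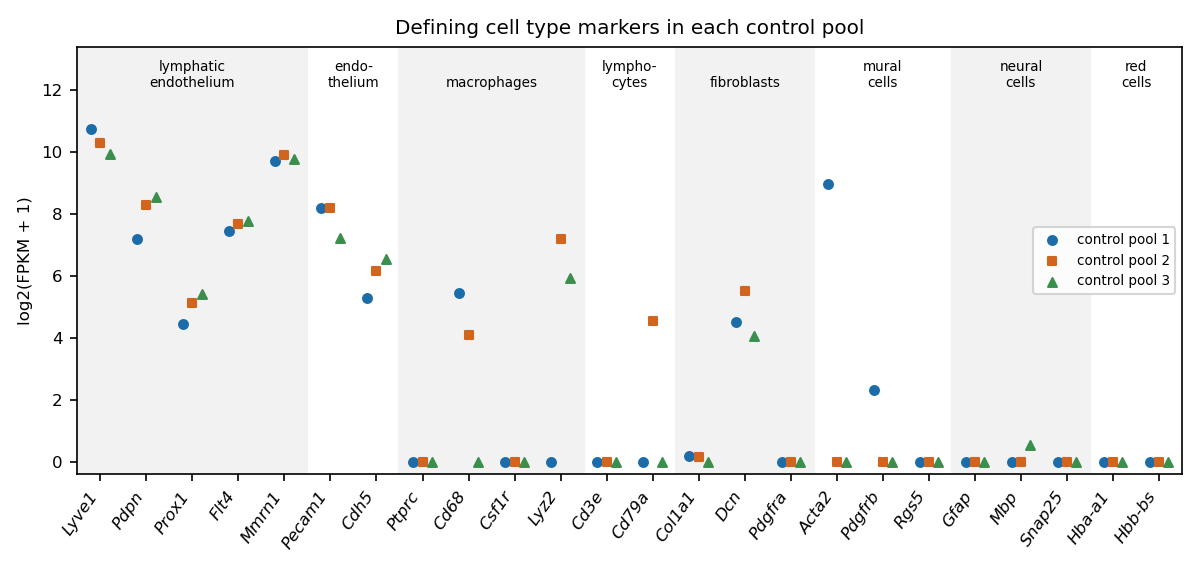
Level of each defining cell type marker as log2(FPKM + 1) on the vertical axis, with 1 point per control pool and genes grouped by cell type along the horizontal axis. The 5 lymphatic and the 2 endothelial markers were above 0 in all pools, and Acta2 was at 505 FPKM in pool 1 and listed at 0 in pools 2 and 3.

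Individual libraries stood apart in limited sets of genes. In pool 1 the 10 mural cell genes summed to 1268 FPKM, against 203 in pool 2 and 170 in pool 3. Acta2 and Tagln, which encode smooth muscle actin and transgelin, had 505 and 641 FPKM in pool 1 and were listed at 0 in the other pools, and Myh11, the smooth muscle myosin gene, had 57.2, 0.0813 and 0 FPKM. Rgs5, Des and Cnn1 were listed at 0 in all pools. Kcnj8, a potassium channel gene of pericytes, went the other way, at 59.9, 195 and 169 FPKM.

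Of the 7 listed genes of MHC class II, which presents peptides to helper T cells, 4 were higher in pool 3 than in the other pools, and H2-DMa, H2-DMb1 and Ciita were listed at 0 in all pools. H2-Ab1, H2-Aa and H2-Eb1 had 72.7, 9.95 and 14.4 FPKM in pool 3 and were listed at 0 in pools 1 and 2. Cd74, the invariant chain of MHC class II, had 0.627, 0.449 and 131 FPKM. Tyrobp, an adaptor of myeloid receptors, also appeared in pool 3 alone, at 71.2 FPKM, beside C1qc at 30.4 FPKM. Other myeloid genes went the other way, with Cd68 at 43.2, 16.1 and 0 FPKM, Aif1 at 22.7, 14.4 and 0 FPKM, Cd14 at 46.0, 27.3 and 4.64 FPKM and C1qa at 33.1, 46.2 and 5.88 FPKM, all lowest in pool 3. C1qb was nearly even over the pools, at 24.2, 21.4 and 25.1 FPKM. With 10 cells in a library, and in bulk RNA in general, fewer cells of a type and less RNA per cell cannot be told apart. The part of other cell types in the results below was not tested.

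The 3 pools listed similar numbers of genes. Above 0 were 7303 genes in pool 1, 8688 in pool 2 and 8152 in pool 3, and the values of all genes summed to 665423, 693117 and 652636 FPKM. Besides the 5357 genes above 0 in all pools, 2693 were above 0 in exactly 2 pools, 2686 in a single pool and 13585 in none. A level of 100 FPKM or more in a pool went with a value above 0 in both others for 97.4% to 97.8% of genes. For genes above 0 but under 10 FPKM in a pool this share was 60.0%, 43.8% and 48.2%.

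Genes found in 1 pool only were low as a rule. There were 625 of them in pool 1, 1167 in pool 2 and 894 in pool 3, with median levels of 5.36, 3.99 and 4.27 FPKM, and they held 1.45%, 1.32% and 1.11% of the summed FPKM. In pool 1 the highest were Myl9, at 1261 FPKM, Tagln, Acta2, Tpm2, at 286 FPKM, and Rarres2, at 166 FPKM. The first 4 of these encode proteins of the contractile apparatus. In pool 2 the highest were Ly6a, at 206 FPKM, Igfbp6, Ptgds, Hist1h3e and Tbc1d7, and in pool 3 Hotairm1, at 160 FPKM, Gap43, Smim4, H2-Ab1 and Tyrobp.

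The genes above 0 in all 3 pools carried 94.2%, 94.7% and 94.5% of the summed FPKM. Their median level was 22.7 FPKM, with quartiles of 9.25 and 60.9. A mean of 100 FPKM or more was reached by 919 genes and of 1000 or more by 96. At the other end 67 of them had a mean under 1 FPKM.

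A small number of genes held much of the total. The highest gene held 5.26% ± 0.228 (SD, n = 3) of the summed FPKM, the 10 highest held 18.3% ± 1.76 (SD, n = 3) and the 100 highest held 44.3% ± 1.34 (SD, n = 3). The latter share was 43.3%, 45.9% and 43.8% in pools 1, 2 and 3. The 1000 highest genes together held 79.0% ± 1.03 (SD, n = 3).

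**Figure D2:**
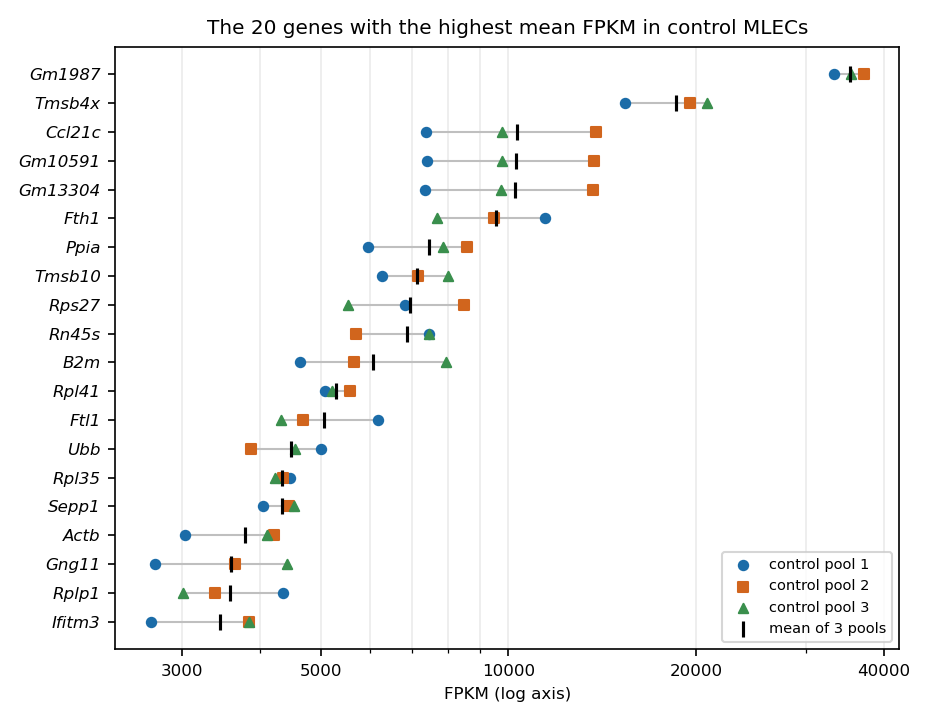
FPKM on a logarithmic horizontal axis for the 20 genes with the highest mean, ordered from the top, with 1 point per control pool, a grey line from the lowest to the highest pool and a black tick at the mean. Gm1987 lay above all other genes in every pool, and Tmsb4x lay above the remaining genes in every pool.

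The chemokine copies came first. Gm1987 had 33261, 37115 and 35396 FPKM in the 3 pools, a spread of 1.12-fold. Ccl21c had 7384, 13803 and 9750 FPKM, and Gm10591 and Gm13304 had nearly the same values as Ccl21c in each pool, within a factor of 1.01. Ccl21b, whose coding sequence is the same, had 3075, 365 and 1618 FPKM, and Ccl21a had 2.87, 1.49 and 0.627 FPKM. The order of pools thus differed between copies of identical coding sequence, with pool 2 highest for Ccl21c and lowest for Ccl21b. Reads that fit several copies cannot be assigned to one of them by their sequence, so the level of any single copy is uncertain. Their sum was 8.79% to 11.3% of the FPKM of a pool, and whether a shared read was divided among the copies or counted for each is not given in the sources used here.

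The second gene was Tmsb4x, on chromosome X, whose product thymosin beta binds actin monomers. It had 15368, 19520 and 20789 FPKM. Tmsb10, a relative of the same function, had 6265, 7166 and 7998 FPKM, and Actb, the beta-actin gene, had 3036, 4207 and 4102 FPKM. In each of these actin genes pool 1 was the lowest, whereas Myl6, a myosin light chain gene, was highest in pool 1, at 2758 FPKM against 2343 and 2387.

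Iron storage was represented by both ferritin chains. Fth1, the heavy chain, had 11453, 9491 and 7696 FPKM and Ftl1, the light chain, had 6178, 4688 and 4315 FPKM. Both were highest in pool 1 and lowest in pool 3. Of the other iron and metal genes Mt1, a metallothionein gene, had 185, 141 and 162 FPKM, while Tfrc, the transferrin receptor gene, had 3.76 FPKM in pool 2 and was listed at 0 in pools 1 and 3.

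The 30 highest genes also held Ppia, the cyclophilin A gene, at 5965, 8570 and 7859 FPKM, and B2m, the light chain of MHC class I, at 4630, 5650 and 7943 FPKM. Ubb, a polyubiquitin gene, had 5007, 3871 and 4553 FPKM, and Eef1a1, which brings aminoacyl-tRNA to the ribosome, had 3325, 2710 and 3170 FPKM. Sepp1, the gene of the secreted selenium carrier selenoprotein P, was even at 4043, 4446 and 4528 FPKM. Gng11, a G protein gamma subunit gene, had 2709, 3644 and 4409 FPKM, and Ifitm3, an interferon-induced gene that limits virus entry, had 2673, 3845 and 3842 FPKM. S100a11, which encodes a calcium-binding protein, had 2567, 3319 and 2667 FPKM. Pool 1 was the lowest for all of these 8 genes other than Ubb and Eef1a1, and the pools differed by at most 1.72-fold in each.

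Rn45s, the precursor of ribosomal RNA, was the only one of the 30 that encodes no protein, at 7446, 5697 and 7453 FPKM. Among the other kinds of RNA, protein-coding genes held 96.1%, 97.7% and 97.1% of the summed FPKM by RefSeq gene type. Snora78 was the only one of 114 small nucleolar RNA genes above 0, and it had 7821 FPKM in pool 1 and 2890 in pool 3 and was listed at 0 in pool 2. None of the 1173 microRNA genes was above 0. Of 2057 long non-coding RNA genes 56 were above 0 in all 3 pools. None of the 15 mitochondrially encoded genes looked up was matched in the table, and such genes were not analysed here.

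The exact order within the 30 was not resolved by 3 pools. Of the 29 pairs of neighbours in the order, 27 overlapped between pools and 2 did not. The pairs apart were Gm1987 and Tmsb4x, and Tmsb4x and Ccl21c. Each of these pairs holds a Ccl21 copy, whose single level is uncertain because reads can fit several copies, so their order is uncertain too. When each pool was ranked alone, 24 genes were in the 30 highest of every pool, out of 36 that were in the 30 highest of any. For the 100 highest these numbers were 73 and 135.

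Ribosomal proteins, the structural parts of the machinery that makes protein, took 39 of the 100 highest places and 11 of the 30 highest. All 79 listed ribosomal protein genes were above 0 in each pool, and they held 16.3% ± 1.01 (SD, n = 3) of the summed FPKM. The highest was Rps27, at 6838, 8473 and 5530 FPKM, followed by Rpl41 at 5077, 5568 and 5207 FPKM. Rpl35 and Fau varied least among the 30, with 4458, 4350 and 4218 FPKM for Rpl35 and 2382, 2479 and 2418 FPKM for Fau. Rplp1, Rpl32, Rpl13, Rps26, Rps14 and Rps23 were further ribosomal protein genes of the 30, with mean levels of 2464 to 3580 FPKM. Of the 79 genes 70 differed by less than 2-fold between the highest and the lowest pool, and the median SD of log2(FPKM + 1) was 0.27 over them. The most varied members were Rpl26, at 148, 408 and 46.4 FPKM, Rpl28, at 1219, 913 and 341 FPKM, and Rps21, at 908, 1693 and 587 FPKM. These 3 were lowest in pool 3, whereas Rpsa, which was next at 301, 174 and 471 FPKM, was highest there. Rpl34-ps1, by its name a pseudogene of Rpl34, was outside the list, with 1820, 2015 and 1465 FPKM against 340, 454 and 268 for Rpl34. Reads of a pseudogene can be shared with its parent gene, so the single values of such genes are uncertain.

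Several listed gene groups accounted for other places among the 100 highest. Subunits of the respiratory chain and ATP synthase held 7 places, among them Cox6a1, at 1945, 2250 and 1938 FPKM, and Cox8a, at 1152, 1236 and 1246 FPKM. All 75 listed subunits were above 0 in every pool, against 22.0% of all listed genes. Together they held 5.06% ± 0.157 (SD, n = 3) of the summed FPKM. The actin cytoskeleton list held 6 places and 6.03% ± 0.696 (SD, n = 3) of the sum, with all 17 members above 0. Genes in none of the lists took 29 places, such as Cst3, the cystatin C gene, at 2784, 2130 and 1758 FPKM, and Gpx3, a secreted glutathione peroxidase gene, at 1002, 1004 and 1109 FPKM.

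Endothelial genes were prominent as well. Cldn5, a tight junction gene of endothelium, had 1497, 1529 and 1702 FPKM and ranked 58. Egfl7, an endothelial matrix protein gene, had 1037, 1618 and 1392 FPKM, and Ramp2, a co-receptor for adrenomedullin, had 969, 1358 and 693 FPKM. Pecam1 had 293, 291 and 150 FPKM, and Cdh5, which encodes VE-cadherin, had 37.9, 71.1 and 93.3 FPKM. Of the 20 pan-endothelial genes 19 were above 0 in all pools, and the exception was Mcam, with 38.4, 3.73 and 0 FPKM.

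Of 23 further genes of lymphatic endothelium 20 were above 0 in all 3 pools. Fxyd6, which encodes a regulator of the sodium pump, was the highest of them, with 751, 375 and 309 FPKM. Reln, the gene of the secreted protein reelin, was even at 69.1, 64.4 and 70.8 FPKM, and Stab1, a scavenger receptor gene, had 217, 211 and 291 FPKM. Thy1 had 222, 325 and 367 FPKM, and Nrp2, a co-receptor for VEGF-C, had 28.8, 53.6 and 40.4 FPKM. Among the transcription factors Sox18 had 179, 430 and 291 FPKM and Nr2f2, which encodes COUP-TFII, had 56.1, 78.1 and 72.7 FPKM. Foxc2, a factor of lymphatic valves, was listed at 0 in every pool, Gata2 had 0.201, 7.44 and 0 FPKM, and Ackr4, a scavenging receptor for CCL21, had 0, 0 and 0.440 FPKM. These 3 genes were the ones of the list not above 0 in all pools.

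Of 22 genes of blood endothelium 11 were above 0 in all pools. Plvap, the diaphragm protein of fenestrae and caveolae, had 686, 1390 and 905 FPKM, and Aqp1, a water channel gene, had 537, 642 and 733 FPKM. Gpihbp1, the capillary anchor of lipoprotein lipase, had 211, 353 and 267 FPKM, and Emcn, the endomucin gene, had 145, 129 and 61.4 FPKM. In contrast Flt1, which encodes VEGFR1, had 0.0997, 0.856 and 0.544 FPKM, and Ly6c1, Slco1a4, Mfsd2a, Slc7a5, Car4 and Ackr1 were listed at 0 in all pools. The summed level of the list was 1738, 2977 and 2222 FPKM, and in pool 2 it included Ly6a, which was listed at 0 in the other pools. Esam had 1.89, 34.1 and 3.57 FPKM and Selp, the P-selectin gene, had 0.945, 34.7 and 1.54 FPKM, both highest in pool 2.

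The shares of members above 0 in all pools are set beside the 22.0% of all listed genes. The lists were chosen with earlier results of these data known. The cells were sorted on endothelial markers, and Pecam1 is itself a pan-endothelial member. These shares are therefore a description and no test of cell identity. They were 100% for ribosomal proteins, 95.0% for pan-endothelial genes, 87.0% for the further lymphatic genes and 50.0% for genes of blood endothelium. Of myeloid, mural cell and fibroblast genes 4 of 16, 2 of 10 and 2 of 12 were, near or below the share of all genes. The median level of members was 964 FPKM for ribosomal proteins, 85.6 for pan-endothelial genes, 52.3 for the further lymphatic genes and 5.68 for blood endothelial genes, with members listed at 0 included. Over all 24321 listed genes the median taken in the same way was 0.

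**Figure D3:**
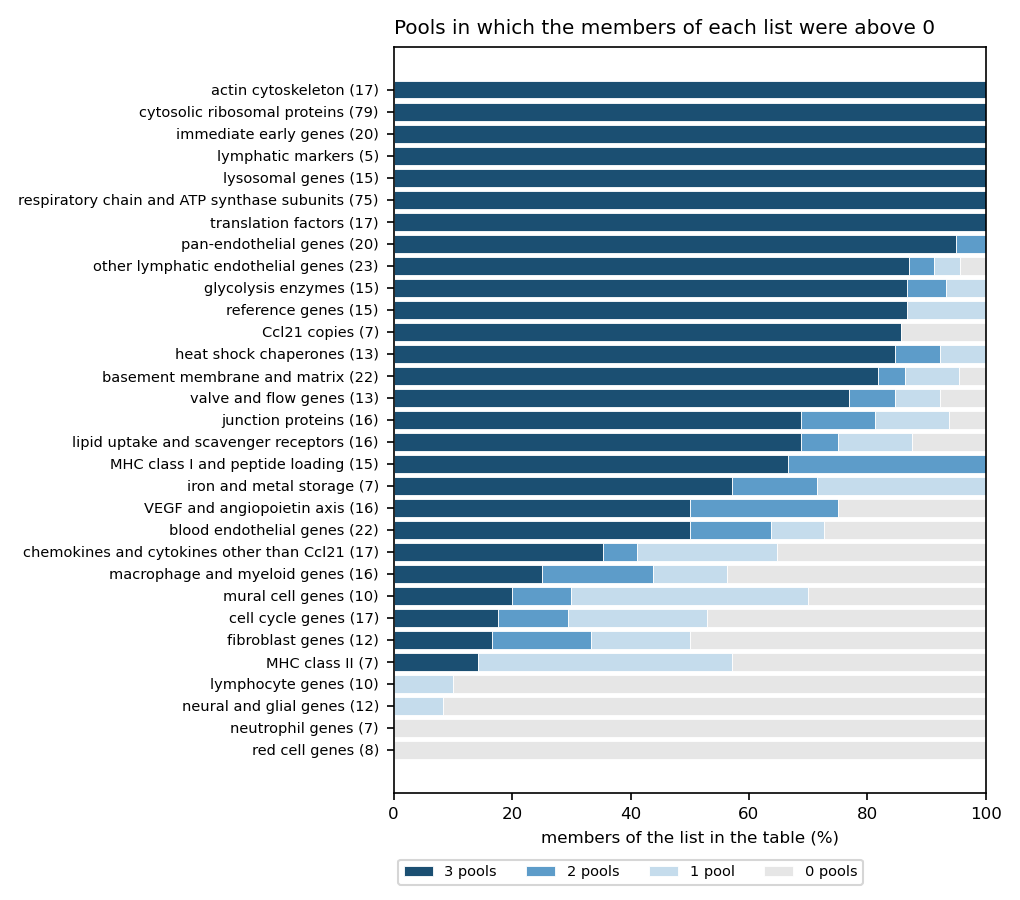
Percent of the members of each gene list that were above 0 in 3, 2, 1 or 0 control pools, with the number of members in the table in brackets after the name. All 79 ribosomal protein and 75 respiratory chain genes were above 0 in 3 pools, and no neutrophil or red cell gene was above 0 in any.

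Receptors and ligands of vessel growth were unevenly represented. Of the 16 genes of the VEGF and angiopoietin axis 8 were above 0 in all pools, or 50.0%, against 22.0% of all listed genes. The receptor genes were Flt4 (above), Kdr, the VEGFR2 gene, with 30.3, 56.7 and 43.3 FPKM, and Tie1, with 63.0, 93.9 and 95.8 FPKM. Tek, which encodes the angiopoietin receptor TIE2, had 4.90, 37.8 and 10.5 FPKM. The ligand gene Angpt2 had 303, 244 and 110 FPKM, while Vegfa, Vegfc, Figf, which encodes VEGF-D, and Angpt1 were listed at 0 in all pools. Pgf, the placental growth factor gene, differed most between pools, at 0, 22.2 and 119 FPKM.

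Beyond the Ccl21 copies 6 of 17 chemokine and cytokine genes were above 0 in every pool, or 35.3%, against 22.0% of all listed genes. They included Il7, a survival factor for lymphocytes, at 102, 38.2 and 38.6 FPKM, Ccl2, at 66.7, 24.0 and 64.2 FPKM, and Tslp, at 17.2, 22.6 and 33.1 FPKM. Lgals9, the galectin-9 gene, was the highest, at 235, 280 and 187 FPKM. Ccl19, the other ligand of CCR7, was listed at 0 in all pools, as were Cxcl9 and Cxcl10.

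Genes of MHC class I, which presents peptides to CD8+ T cells, were above 0 in all pools for 10 of 15 members. This was 66.7%, against 22.0% of all listed genes. The summed level of the list was 6568, 7897 and 10590 FPKM. H2-D1, a heavy chain gene, had 789, 1021 and 1344 FPKM and H2-K1 had 320, 533 and 527 FPKM. Heavy chain genes are a multigene family whose reads can be shared, so their single values are uncertain. Tap1, which carries peptides into the endoplasmic reticulum, had 0, 5.94 and 26.6 FPKM, and the immunoproteasome genes Psmb8 and Psmb9 had 0, 33.4 and 107 FPKM and 0, 28.8 and 74.5 FPKM. All 3 genes were listed at 0 in pool 1 and were highest in pool 3, where most of the MHC class II level lay. The list did not move together, since H2-K1, H2-Q4, H2-T23, Tap2, Pdia3 and Psmb10 were not highest in pool 3. H2-T23 had 330, 251 and 74.98 FPKM and Psmb10 had 54.4, 69.4 and 45.6 FPKM, both lowest in pool 3. Tap2 was highest in pool 2.

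Immediate early genes are those that cells switch on within minutes of a stimulus. All 20 members of the list were above 0 in every pool, against 22.0% of all listed genes. Fos had 1292, 1035 and 778 FPKM and Dusp1, a phosphatase gene that shuts off MAP kinases, had 1284, 973 and 787 FPKM, which placed both among the 100 highest genes. Egr1 had 1112, 887 and 591 FPKM and Cyr61, a matricellular protein gene, had 928, 605 and 336 FPKM. The summed level of the list was 7366, 5889 and 4499 FPKM, or 1.11%, 0.850% and 0.689% of the FPKM of a pool. The order of pools was not the same for all members, as Klf2, a factor induced by flow, had 51.1, 182 and 134 FPKM.

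Junction, flow and matrix genes were mixed. Of 16 junction genes 11 were above 0 in all pools, or 68.8%, against 22.0% of all listed genes. Jup, the plakoglobin gene, had 169, 134 and 88.9 FPKM and F11r, the JAM-A gene, had 70.1, 205 and 193 FPKM. Of 13 valve and flow genes 10 were above 0 in all pools (76.9%). Gja1, which encodes connexin 43, had 75.8, 197 and 304 FPKM and Gja4, which encodes connexin 37, had 146, 39.9 and 67.2 FPKM. Of 22 matrix genes 18 were above 0 in all pools (81.8%), led by Igfbp7, at 1680, 1876 and 1546 FPKM. Sparc, a collagen-binding protein gene, had 97.4, 491 and 612 FPKM, and Mgp, the matrix Gla protein gene, had 159 and 744 FPKM in pools 1 and 2 and was listed at 0 in pool 3.

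Genes of uptake and breakdown were found in most cases. All 15 lysosomal genes were above 0 in every pool, against 22.0% of all listed genes. Cd63 and Ctsd, the cathepsin D gene, were the highest, at 807, 969 and 952 FPKM and at 490, 1017 and 598 FPKM. Of 16 lipid and scavenger genes 11 were above 0 in all pools (68.8%). They included Cd36, the fatty acid translocase gene, at 92.6, 33.3 and 63.5 FPKM, Cav1, the caveolin gene, at 260, 326 and 199 FPKM, and Apoe, at 60.0, 326 and 367 FPKM. Mrc1, which encodes the mannose receptor of macrophages and lymphatic endothelium, had 11.3, 54.3 and 82.2 FPKM. Lpl and Fabp5 were listed at 0 in all pools.

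Proliferation genes were above 0 in all pools for 3 of 17 members, or 17.6%, which is near the 22.0% of all listed genes. Mki67 had 0, 0.0524 and 0.251 FPKM, and Ccnb1, Birc5, Plk1 and Aurkb, which act in mitosis, were listed at 0 in every pool. The members above 0 in every pool act in DNA synthesis. They were Pcna, the sliding clamp gene, at 7.85, 68.5 and 246 FPKM, Mcm6, a helicase subunit gene, at 40.3, 19.1 and 16.1 FPKM, and Tyms, the thymidylate synthase gene, at 12.9, 6.25 and 0.231 FPKM. Pcna was highest in pool 3, and the other 2 were highest in pool 1. Of 15 glycolysis enzymes 13 were above 0 in all pools (86.7%), with Gapdh at 736, 918 and 586 FPKM and Aldoa at 442, 274 and 289 FPKM. Of 13 heat shock chaperone genes 11 were (84.6%), with Hspa8 at 1103, 799 and 874 FPKM.

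The spread between pools differed with level. Over the 5357 genes the SD of log2(FPKM + 1) between the 3 pools had a median of 0.73, and the highest pool exceeded the lowest by a median of 2.95-fold. The median SD was 0.37 for the 67 genes with a mean under 1 FPKM, where the added 1 compresses differences, 0.95 for genes with a mean of 1 to 10 FPKM, 0.68 at 30 to 100 FPKM, 0.52 at 100 to 300 FPKM and 0.26 from 1000 FPKM. Of the 96 genes from 1000 FPKM upwards 88 differed by less than 2-fold, or 91.7%, against 29.3% of all genes above 0 in all pools. A difference of more than 10-fold between pools was seen in 1010 genes (18.9%).

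**Figure D4:**
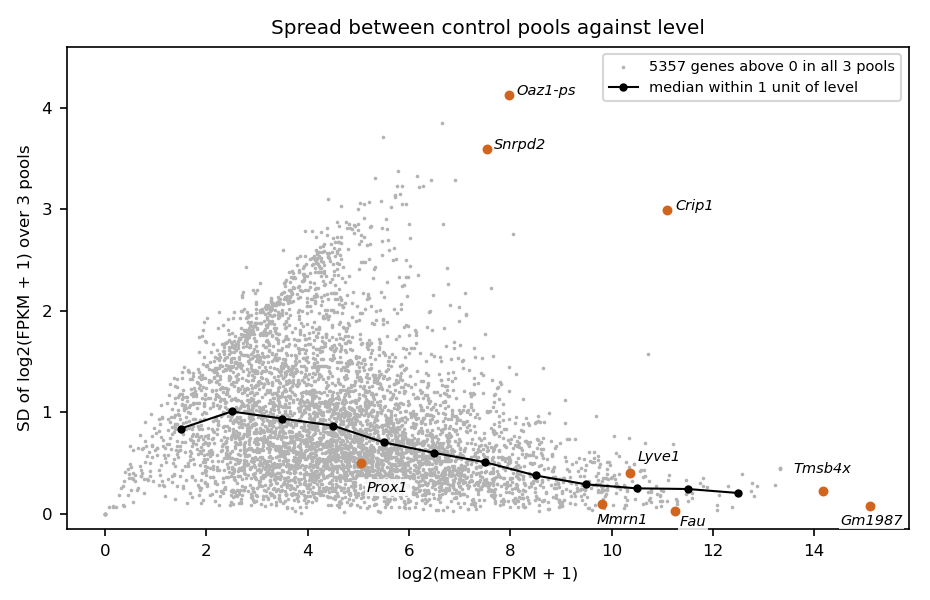
SD of log2(FPKM + 1) over the 3 control pools on the vertical axis against log2(mean FPKM + 1) on the horizontal axis, with 1 grey point per gene above 0 in all pools, the median within each unit of level as a black line and 9 named genes in orange. The line starts at a mean of 1 FPKM, and Crip1, Oaz1-ps and Snrpd2 lie far above it. In bands of mean FPKM, which are not the units of the line, the median SD was 0.37 under 1 FPKM, 0.95 at 1 to 10 FPKM and 0.26 from 1000 FPKM.

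Across genes, Spearman's correlation was 0.758 between pools 1 and 2, 0.718 between pools 1 and 3 and 0.757 between pools 2 and 3 (n = 5357 genes, which are not independent replicates and which share the length and amplification biases of the same protocol). Over the 10736 genes above 0 in any pool it was 0.561, 0.537 and 0.580. Over the 919 genes with a mean of at least 100 FPKM it was 0.742, 0.681 and 0.783. Pools 1 and 3 were the least alike in each case, and they shared 76 of their own 100 highest genes against 81 for each other pair.

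**Figure D5:**
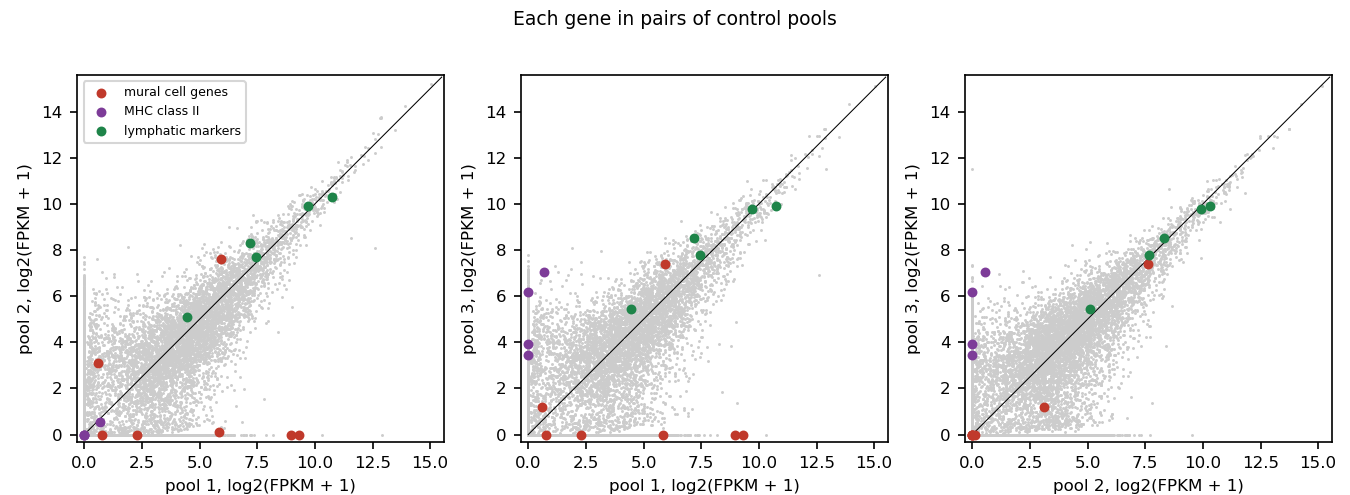
Each listed gene as log2(FPKM + 1) in 1 control pool against another, for the 3 pairs of pools, with mural cell genes in red, MHC class II genes in purple, lymphatic markers in green and the line of equal levels in black. The lymphatic markers lie near the line, Acta2 and Tagln lie on the axis of pool 1 and H2-Ab1 lies on the axis of pool 3.

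Among genes with a mean of at least 100 FPKM, the 10 most even were Krtcap2, Ube2d3, Fau, BC031181, Rpl35, Rps27l, Atp5f1, Srp14, Gtf2a2 and Pcbd2. Krtcap2, which encodes a subunit of the oligosaccharyltransferase complex, had 386, 372 and 382 FPKM, and Ube2d3, a ubiquitin-conjugating enzyme gene, had 118, 114 and 118 FPKM. The SD of log2(FPKM + 1) was between 0.03 and 0.05 in these 10 genes, which were taken from the low end of 919 values and are a description of these pools.

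The 10 most varied genes at this level were Oaz1-ps, Snrpd2, Mustn1, Crip1, Cyc1, Mif, Pcna, Eif4a3, Tpm1 and Hspa1a. Snrpd2, a core protein gene of the spliceosome, had 2.70, 276 and 275 FPKM, and Cyc1, the cytochrome c1 gene, had 3.88, 122 and 176 FPKM, both low in pool 1 alone. Mif, a cytokine gene, had 442, 339 and 13.2 FPKM and Eif4a3, a gene of the exon junction complex, had 176, 140 and 9.43 FPKM, both low in pool 3 alone. Oaz1-ps, a pseudogene of antizyme whose reads can be shared with its parent gene, had 529, 223 and 1.57 FPKM. Of the 16 genes at this level that differed by more than 10-fold, 7 were set apart by a low value in pool 3 and 3 by a low value in pool 1.

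A high value in pool 1 set Crip1, Mustn1 and Tpm1 apart. Crip1, which encodes a LIM domain protein, had 6201, 274 and 120 FPKM, and its rank of 34 rests on pool 1, since its mean over pools 2 and 3 was 197 FPKM. Tpm1, a tropomyosin gene, had 515, 45.2 and 28.1 FPKM, with a mean of 36.6 FPKM over pools 2 and 3, and Mustn1, a musculoskeletal gene, had 334, 20.9 and 2.63 FPKM, with a mean of 11.8 FPKM over pools 2 and 3. These values moved with the mural cell genes of pool 1, whose part in them was not tested. Hspa1a, a stress-induced chaperone gene, had 306, 91.5 and 14.3 FPKM, in the same order of pools as Fos, Dusp1, Egr1 and Cyr61.

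The highest genes had short transcripts. Over the 4907 genes with a protein-coding transcript in GENCODE M1 (91.6% of 5357), the longest transcript had a median of 2827 bases. The median was 860 bases for the 100 highest genes, 1278 bases for the next 400, 1880 bases for the next 1500 and 3663 bases for the remaining 3357. Transcripts under 1000 bases were 65.3% of the 100 highest genes with a length and 8.58% of all. Spearman's correlation across these genes between mean FPKM and length was -0.65, and between mean FPKM and GC content it was 0.18. Rps27 had 345 bases, Tmsb4x 864 and Ccl21c 868, whereas Prox1 had 4133 and Flt4 6255. FPKM are divided by length, and the part of length in the order of genes was not tested.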

How the data were processed

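RNA-seq (Smart-seq2 protocol, per the labels) of 3 control MLEC libraries was analysed. The study's methods do not use this name and describe a poly(T) tail joined to first-strand cDNA before amplification. Per the labels and the study's methods, the authors trimmed reads and used TopHat2 2.0.12 on mm9, and FPKM from Cufflinks 2.2.1 were deposited for each symbol. The gene annotation is not given in the sources used here. The labels gave each sample's group and replicate. Levels are the mean, SD and rank of FPKM over the 3 pools. Spread is the SD of log2(FPKM + 1). No test was made, since 1 group is described, and no group comparison of the study was used. The SD per gene and the ranking of genes by spread were checked on simulated data. Genes named were the 30 with the highest mean FPKM (1 of which is not reported here), the 10 with the smallest and the 10 with the largest spread at a mean of at least 100 FPKM, the 5 highest genes found in each pool alone, and members of gene lists. Other members of the 100 highest and of other RNA kinds were named after their values were seen. The members and lists were chosen with earlier results of these data known. Lengths, GC content and coding sequences came from GENCODE M1 (mm9), where 20669 of 24321 symbols had exactly 1 entry. RNA kinds and promoters came from RefSeq (GRCm38.p6). FPKM carry no counts, so precision rests on the spread between 3 pools. Alternatives were other detection limits, another pseudocount (0.1), rescaling each pool to 1000000, quantile normalization, other rankings, leaving out genes or each pool. Python 3.11.15, numpy 2.4.6, pandas 2.3.3 and matplotlib 3.10.9 were used.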

Additional observations from a re-analysis of the deposited data

How the results depend on the processing

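Of 39 alternatives over 6 results, 27 stayed within a limit set for each result and 12 did not. The limit was 1.5 times for a count and the SD over pools for a share. For the median SD it was the SD of the values with each pool left out, and for the correlation the SD over pairs of pools. A detection limit of 10 FPKM left 2686 genes in place of 5357, and leaving out each pool gave 5886 to 6729. Without the Ccl21 copies the 100 highest genes held 38.9% and ribosomal proteins 18.2% of the summed FPKM, against 44.3% and 16.3%. With each pool left out the first share was 44.4% to 45.1%. Leaving out Snora78 and Rn45s, chosen after seeing the data, gave 44.1% and 16.6%. The median SD of 0.73 was 0.81 with a pseudocount of 0.1 and 0.68 for genes with a mean of at least 10 FPKM. It was 1.14 for genes above 0 in any pool. With each pool left out it was 0.54 to 0.64, and these settings count among the 12. An SD over fewer pools has a lower median at the same spread, so these values are not like for like with 0.73. The mean Spearman correlation of 0.745 was 0.560 over genes above 0 in any pool and 0.682 over genes with a mean of at least 10 FPKM. With each pool left out it was only the correlation of the remaining pair given above, 0.718 to 0.758. Of the 30 highest genes 30 were kept under each other ranking or scaling tried and 28 to 29 without 1 pool. Causes were not tested. No paired analysis was possible because no result comes from a test. Without counts, a value listed at 0 cannot be given an upper limit.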
